A study of Bos taurus with 147 samples.

Results

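The 7 genes described here encode collagen chains measured in bovine longissimus muscle: COL1A1, COL1A2, COL3A1, COL5A3, COL12A1, COL4A1 and COL6A2. They were chosen by name, as the array elements that carry a single gene symbol equal to one of these, and they are 7 of 976 genes that the array names by 1 symbol. Of 44 collagen chains looked for, these 7 are the ones with a name of their own here. The fetal muscles came from Piedmontese-sired and Wagyu-sired fetuses at about d 60, d 135 or d 195 of gestation, and from calves at birth, with 3 animals for each sire breed and stage. All dams were Hereford. The Piedmontese sires were homozygous for a missense mutation of GDF8, the gene of myostatin, a growth factor that restrains muscle growth, so that every Piedmontese-sired fetus carried 1 mutated copy. The Wagyu sires were not carriers. A single bull of each breed sired all d 60 fetuses, the Piedmontese-sired d 195 group included twins, and the d 60 muscle was hard to part from the skin above it. All calves at birth were female, the d 195 fetuses were mostly male, and a single bull sired the Piedmontese-sired d 195 group. Stage is therefore partly tied to sex and sire, which was not tested. The paper proposes that RNA amplification may have biased the earliest sample of an individual fetus. Its discussion therefore focuses on the later stages. Contrasts with d 60 below carry that caution. A later experiment used longissimus muscle of Piedmontese x Hereford and Wagyu x Hereford animals at times called T1, T2 and T3, whose ages are not in the labels used here.

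Collagens are secreted proteins of the extracellular matrix whose chains wind into a triple helix. In muscle, fibroblasts lay down type I and type III collagen, which assemble into the fibrils of the sheaths around fibres, fascicles and whole muscles. Type V collagen takes part in the start of fibrils, type XII binds to their surface, type IV forms the sheet of the basement membrane and type VI forms beaded filaments between the basement membrane and the fibrils.

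Each array held 2 samples, one labelled with Cy5 and one with Cy3, and the value is the log2 ratio of one dye over the other, so that 1 unit is a doubling and no absolute level is measured. The 25 fetal arrays form a loop: each sire breed was hybridised stage against next stage, with 3 arrays a link and 4 for d 195 over d 135 in Wagyu-sired muscle, and the breeds were joined at d 60 and at birth by 3 arrays each. The 20 crossbred arrays hold 4 of the breeds against each other at every time and 2 for each step of time within a breed. Which dye belongs to the top of the ratio was read from the labels, and the direction is therefore likely rather than stated. Of 21168 elements, 19404 to 20771 gave a usable ratio on a fetal array and 20794 to 20946 on a crossbred array. All 7 collagens passed the filter on missing values in both experiments. On 1 array that carried the same muscle RNA in both dyes, their ratios lay between -0.14 (COL5A3) and 0.17 (COL12A1), while the central 90 % of features spanned -0.60 to 0.48. Neighbouring links of the fetal loop share the 3 animals of a group, and the array number is not tied to an animal. The fit therefore holds no animal term, and the p-values measure the spread between arrays.

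Most of the collagens fell over the fetal series: 5 of 7 were lower at birth (COL6A2 only with 1 reading at the upper limit of the file left missing), and COL4A1 and COL5A3 did not pass the test. Between birth and d 60, as the mean of both sire breeds, COL12A1 was 19.4-fold lower, COL3A1 14.7-fold lower, COL1A2 11.2-fold lower, COL1A1 7.86-fold lower and COL6A2 1.83-fold lower. On the log2 scale these are -4.28 ± 0.35 for COL12A1, -3.88 ± 0.21 for COL3A1, -3.49 ± 0.40 for COL1A2, -2.97 ± 0.42 for COL1A1 and -0.87 ± 0.23 for COL6A2 (± SE, limma, adjusted p 4.54e-09, 5.25e-11, 3.44e-07, 4.45e-06 and 0.00307). The adjustment runs over all 16659 features. Across them 25.6 % passed as lower in this contrast, as did 295 of 975 named genes. COL4A1 had -0.42 ± 0.45 (adjusted p 0.461) and COL5A3 -0.06 ± 0.15 (adjusted p 0.754), and their 95 % intervals ran from -1.37 to 0.53 and from -0.37 to 0.25. The median of the 7 was -2.97, beside -0.07 over all features and -0.24 over the named genes. In bulk muscle, fewer cells that make a collagen and less of its RNA per cell cannot be told apart.

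**Figure D1:**
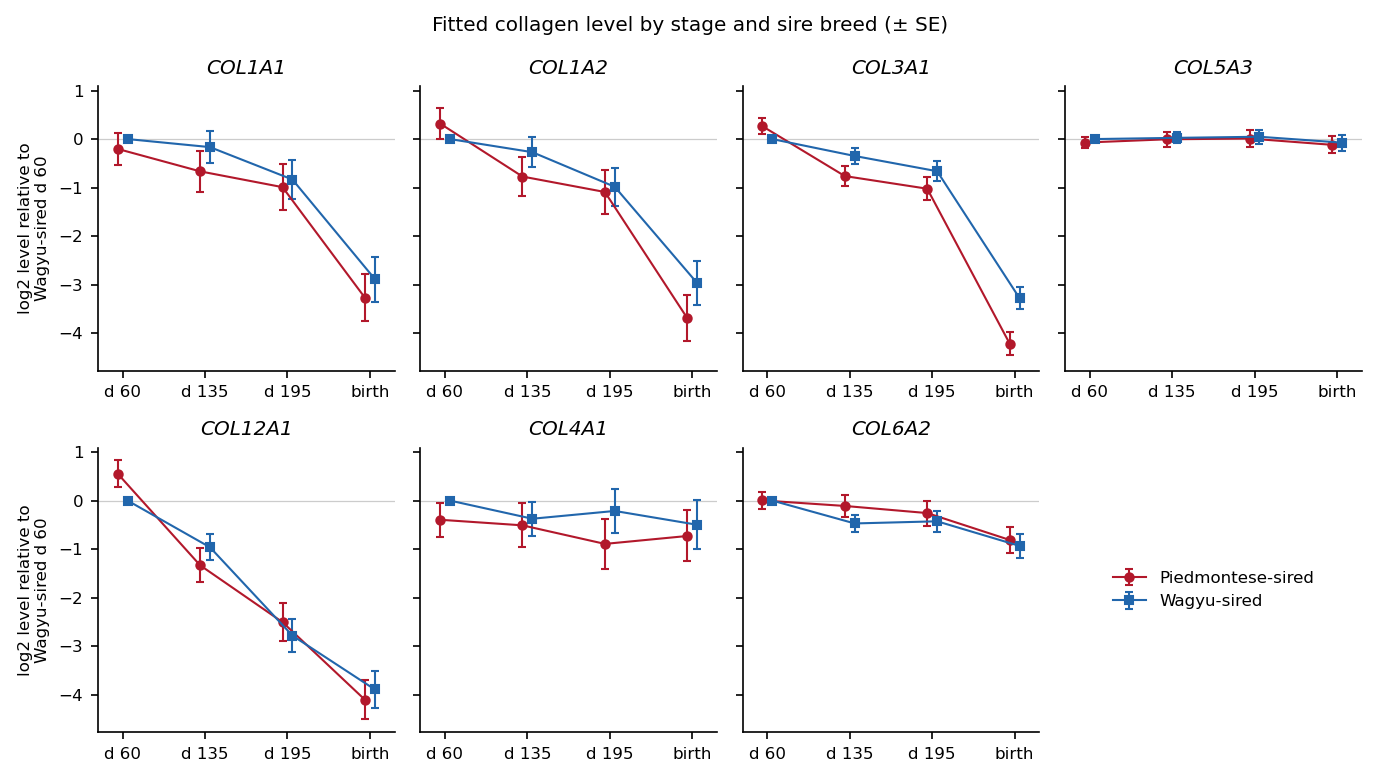
Fitted log2 level of each collagen (y axis, relative to Wagyu-sired muscle at d 60) by stage, with birth last (x axis), in Piedmontese-sired (red circles) and Wagyu-sired (blue squares) muscle, with bars of 1 SE. COL12A1 steps down at every stage, COL1A1, COL1A2 and COL3A1 drop mostly between d 195 and birth, and COL4A1 and COL5A3 stay within about 1 unit of the start.

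The 5 genes were lower in each sire breed, COL6A2 only where 1 reading at the upper limit of the file was left missing. In Piedmontese-sired muscle birth stood against d 60 at -4.66 for COL12A1, -4.48 for COL3A1, -4.01 for COL1A2, -3.07 for COL1A1 and -0.81 for COL6A2. In Wagyu-sired muscle the values were -3.89 for COL12A1, -3.28 for COL3A1, -2.97 for COL1A2, -2.88 for COL1A1 and -0.93 for COL6A2. Among all features 22.9 % were lower in Piedmontese-sired and 24.7 % in Wagyu-sired muscle. With that reading kept COL6A2 was 0.30 in Piedmontese-sired and 0.93 in Wagyu-sired muscle (adjusted p 0.857 and 0.553). Its call was also lost in Piedmontese-sired muscle without the arrays numbered 1 (-0.83, adjusted p 0.0968) or 3 (-0.72, adjusted p 0.104) and in Wagyu-sired muscle without those numbered 1 (-0.98, adjusted p 0.0532). These 2 contrasts run through linked arrays, not through arrays that held d 60 and birth together.

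COL3A1, the chain of type III collagen, had its smallest step between d 195 and d 135 and its largest between birth and d 195. In Piedmontese-sired muscle the arrays gave -1.05, -1.11 and -1.15 for d 135 over d 60, -0.43, -0.45 and -0.13 for d 195 over d 135, and -2.67, -3.07 and -4.07 for birth over d 195. In Wagyu-sired muscle they gave -0.44, -0.15 and -0.23 for d 135 over d 60, -0.47, -0.20, 0.04 and -0.31 for d 195 over d 135, and -2.63, -2.42 and -2.56 for birth over d 195. Every array of the last step lay below every array of the other steps. Over both breeds the steps were -0.69 ± 0.12 (adjusted p 2.59e-04), -0.29 ± 0.12 (adjusted p 0.0945) and -2.90 ± 0.12 (adjusted p 6.47e-13), where 17 %, 6.19 % and 25.8 % of all features were lower. Taken by breed, the first step passed in Piedmontese-sired but not in Wagyu-sired muscle, where 15.2 % and 4.95 % of all features were lower. The difference between the breeds in that step did not pass.

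COL1A2 and COL1A1 encode the chains that together build type I collagen, and they followed each other. In Piedmontese-sired muscle COL1A2 had -0.78, -1.48 and -1.42 for d 135 over d 60, -1.14, -0.80 and 0.58 for d 195 over d 135, and -1.63, -2.44 and -4.14 for birth over d 195. In Wagyu-sired muscle it had 0.27, -0.22 and -0.45, then -1.35, -0.35, -0.21 and -0.41, then -1.82, -1.89 and -1.83 for the same steps. The Piedmontese-sired array numbered 3 stood apart on both sides of d 195, above 0 in one link and lowest in the other. COL1A1 showed the same array: 0.66 beside -1.03 and -0.60 for d 195 over d 135, and -3.85 beside -1.16 and -1.82 for birth over d 195. In Wagyu-sired muscle COL1A1 had -2.33, -1.78 and -2.04 for birth over d 195. All 6 arrays of the last step were below -1 for both genes.

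Over both breeds birth was lower than d 195 by -2.29 ± 0.24 for COL1A2 and -2.16 ± 0.25 for COL1A1 (limma, adjusted p 8.34e-08 and 2.95e-07). The first step passed for COL1A2 at -0.68 ± 0.24 (adjusted p 0.0338), but not without the arrays numbered 2 (-0.60, adjusted p 0.270) or 3 (-0.55, adjusted p 0.0586), and COL1A1 had -0.31 ± 0.25 (adjusted p 0.354). Taken by breed, COL1A2 passed there in Piedmontese-sired muscle alone, and not without the arrays numbered 2 (-0.97, adjusted p 0.192). In the middle step neither gene passed, with -0.52 ± 0.22 for COL1A2 and -0.50 ± 0.23 for COL1A1 (adjusted p 0.122 and 0.153). Without the arrays numbered 3 the middle step was lower for COL1A2 (-0.84, adjusted p 0.00882), for COL1A1 (-0.77, adjusted p 0.00885) and for COL3A1 (-0.38, adjusted p 0.0203), while without those numbered 1 it was -0.22 for both COL1A2 (adjusted p 0.584) and COL1A1 (adjusted p 0.618).

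COL12A1, the chain of type XII collagen, was lower at each step, by like amounts in the mean of both breeds. In Piedmontese-sired muscle the arrays gave -1.86, -1.51 and -1.88 for d 135 over d 60, -1.72, -0.87 and -0.51 for d 195 over d 135, and -1.38, -0.98 and -2.02 for birth over d 195. In Wagyu-sired muscle they gave -0.41, -1.42 and -1.47 for d 135 over d 60, -3.03, -1.79, -1.05 and -1.96 for d 195 over d 135, and -1.01, -0.86 and -1.88 for birth over d 195. All 19 arrays that join stages lay below 0. The fitted steps were -1.43 ± 0.21, -1.50 ± 0.19 and -1.35 ± 0.21 (adjusted p 3.31e-05, 1.74e-05 and 1.35e-05), and COL12A1 was the only collagen here to pass in the middle step. Within a breed the steps were less even, at -1.89, -1.17 and -1.60 in Piedmontese-sired and -0.96, -1.82 and -1.11 in Wagyu-sired muscle.

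The difference between steps was tested directly, as a contrast added after the values were seen. The last step differed from the first by -2.21 ± 0.17 for COL3A1, -1.85 ± 0.35 for COL1A1 and -1.61 ± 0.34 for COL1A2 (limma, adjusted p 1.65e-08, 3.39e-04 and 8.42e-04). For COL12A1 the same difference was 0.07 ± 0.29 (adjusted p 0.876), with a 95 % interval from -0.54 to 0.68. The last step also differed from the middle one for COL3A1 (-2.62), COL1A2 (-1.78), COL1A1 (-1.67) and, near the threshold, COL6A2 (-0.48, adjusted p 0.0478), while COL12A1 had 0.14 (adjusted p 0.744). The COL6A2 call was lost without the arrays numbered 1 (-0.51, adjusted p 0.188) or 3 (-0.27, adjusted p 0.411), and under 6 other settings, among them no centring, capped values kept and array weights (adjusted p 0.05003 to 0.719). Among all features 19.7 % and 17 % were lower in these 2 contrasts. The steps next to each other share the muscles of a stage.

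**Figure D2:**
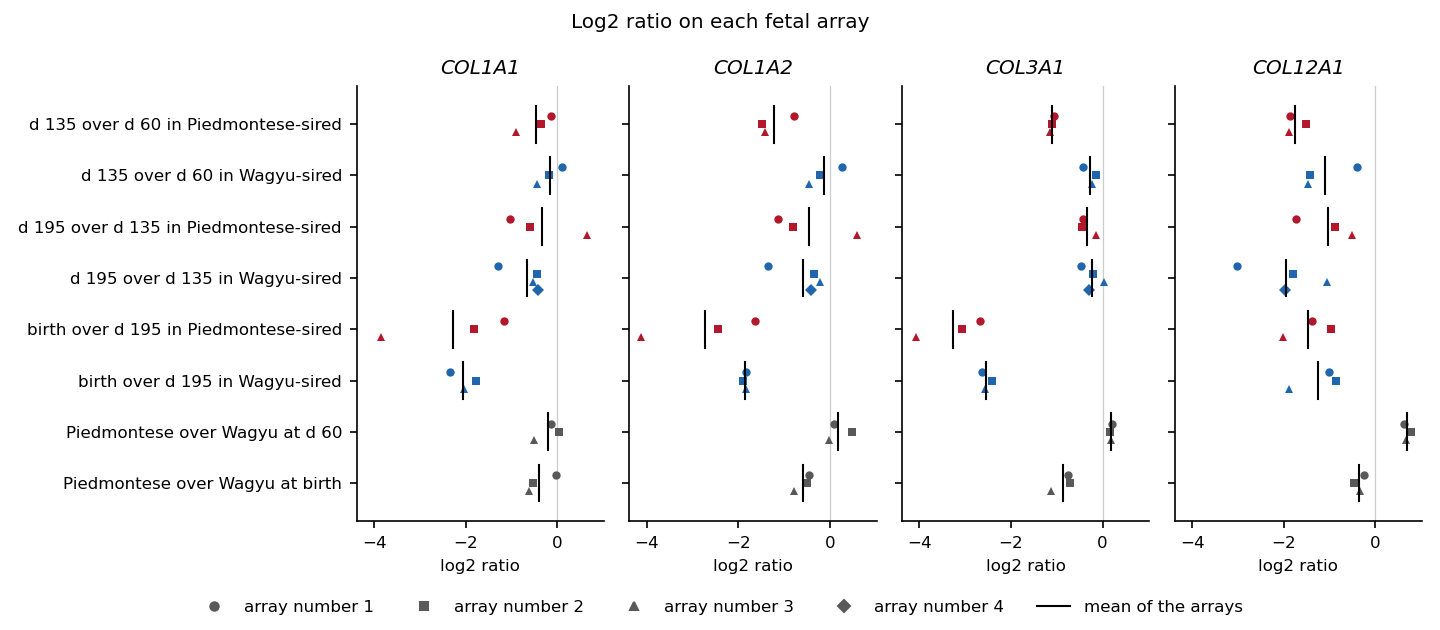
Log2 ratio on each fetal array (x axis) for COL1A1, COL1A2, COL3A1 and COL12A1, by link of the loop (y axis), where the marker shape is the array number and the black bar the mean. For COL3A1 the 6 arrays of birth over d 195 lie between -4.07 and -2.42, and the triangle of the Piedmontese-sired d 195 links stands apart for COL1A1 and COL1A2.

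COL6A2, a chain of type VI collagen, passed in the last step alone. Birth over d 195 gave -0.51, -0.24 and -0.79 in Piedmontese-sired muscle and -0.53, -0.30 and -0.80 in Wagyu-sired muscle, all below 0. The fit gave -0.53 ± 0.13 (adjusted p 0.00223), or -0.40 with adjusted p 0.0749 without the arrays numbered 3. Both this call and its fall between birth and d 60 rest on how 1 reading is treated: 1 of its 2 elements sat at the upper limit of the file on a Wagyu-sired array of d 135 over d 60. With it kept at the limit, birth over d 195 was -0.53 with adjusted p 0.511. Birth over d 60 was -0.87 with the reading left missing, as above, and 0.62 (adjusted p 0.650) with it kept.

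COL4A1, a chain of the basement membrane, scattered more than it moved. Its ratios for birth over d 195 were -0.24, 1.88 and -0.34 in Piedmontese-sired muscle and -0.19, -0.96 and -0.52 in Wagyu-sired muscle, on both sides of 0. The fit gave -0.06 ± 0.26. COL5A3, a type V chain, stayed between -0.40 and 0.35 on the 19 fetal arrays that join stages, with no array far from 0, and its birth over d 195 ratio was -0.13 ± 0.09 (adjusted p 0.241). Neither gene passed in any comparison of either experiment.

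The sire breeds differed for 1 collagen in the fetal series. At birth COL3A1 had -0.74, -0.70 and -1.12 for Piedmontese-sired over Wagyu-sired calves, all 3 below 0, while at d 60 it had 0.20, 0.16 and 0.19, all above 0. Fitted over the loop it was -0.94 ± 0.16 at birth (1.91-fold lower, adjusted p 0.0230) and 0.26 ± 0.16 at d 60 (adjusted p 0.536). At birth 0.192 % of all features were lower and at d 60 the share called in either direction was 0.048 %. The change from d 60 to birth was larger in Piedmontese-sired muscle by -1.20 ± 0.21 (adjusted p 0.00399), where 7.94 % of all features were lower. The call at birth was lost without the arrays numbered 2 (-0.99, adjusted p 0.153) or 3 (-0.77, adjusted p 0.406) and with no centring of the arrays (-0.77, adjusted p 0.0691). The difference of changes was lost without the arrays numbered 2 (-1.25, adjusted p 0.105) or 3 (-0.99, adjusted p 0.0864). At each of these stages a breed always had the same dye, Wagyu in Cy5 at d 60 and Piedmontese in Cy5 at birth. Between stages the earlier one was always in Cy5 in Piedmontese-sired muscle and the later one in Wagyu-sired muscle. No fetal link has a dye swap, so the dye effect can be fitted only from how the loop closes. For COL3A1 it was 0.08 ± 0.06 (limma, adjusted p 0.501).

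At birth none of the 11 collagen-binding matrix genes passed between the breeds (-0.86 to 0.01, median -0.39). Nor did the 2 collagen receptors (-0.76 and -0.72), the 8 muscle fibre markers (-0.30 to 0.28) or the 2 fibroblast markers (-0.39 to 0.07). Across all features 0.276 % were called in either direction, so the lack of a call in lists this short tells little. The collagen chains other than COL3A1 showed no breed difference past the threshold. At birth COL1A2 had -0.46, -0.51 and -0.79 and COL1A1 -0.02, -0.53 and -0.61, with fits of -0.72 ± 0.31 and -0.39 ± 0.32 (adjusted p 0.212 and 0.539). At d 60 COL12A1 had 0.63, 0.78 and 0.68, all above 0, and the fit over the whole loop gave 0.55 ± 0.27 (adjusted p 0.425). No array set the breeds against each other at d 135 or d 195. There the fits, carried through the loop, lay between -0.68 (COL4A1, d 195) and 0.36 (COL6A2, d 135) with no member called, and limma called 0 features of the whole table at either stage, beside 262 at d 135 and 446 at d 195 with an unadjusted p under 0.05.

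COL1A1, COL1A2 and COL3A1 are each spotted as many cDNA clones, which allows the ratio to be read clone by clone. COL1A1 has 34 clones on 68 elements, COL1A2 10 clones on 24 and COL3A1 31 clones on 66, while the other 4 genes have 1 clone each, printed as a pair of elements. For birth over d 60 all 31 COL3A1 clones lay between -4.57 and -3.10. Of the COL1A1 clones 31 of 34 were below -2, and the remaining 3 had -0.95, -0.86 and -0.63. Of the COL1A2 clones 9 of 10 were below -2, and the last one had 0.50 with duplicate elements 0.03 apart. These 4 clones carry the symbol in the annotation and were kept, and whether they hold that gene was not tested. With the median over elements in place of the mean, the same number of collagens passed in this comparison. At birth all 31 COL3A1 clones were below 0 for Piedmontese-sired over Wagyu-sired calves (-1.18 to -0.52), and at d 60 all 31 were above 0 (0.10 to 0.44). Clones on 1 array share its RNA, so these counts are no replication.

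**Figure D3:**
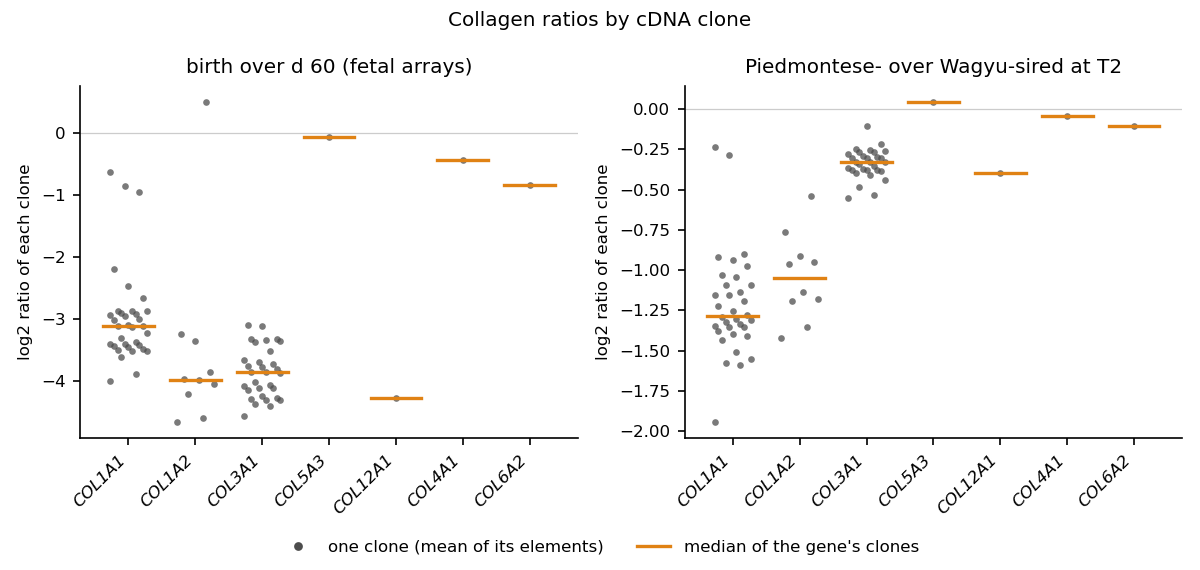
Log2 ratio of each cDNA clone (y axis; points are the mean of a clone's elements, orange bars the median of a gene's clones) for the 7 collagens (x axis), for birth over d 60 on the left and Piedmontese- over Wagyu-sired muscle at T2 on the right, with a y scale of its own in each panel. The 31 COL3A1 clones on the left lie between -4.57 and -3.10, and 1 COL1A2 clone lies at 0.50.

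Across the 25 fetal arrays the type I and type III chains ran together. Pearson r was 0.96 for COL1A1 with COL1A2, 0.95 for COL1A2 with COL3A1 and 0.92 for COL1A1 with COL3A1. COL12A1 had r of 0.68 to 0.78 with them and COL6A2 0.64 to 0.67, while COL4A1 had 0.10 to 0.22 and COL5A3 0.22 to 0.31. These are descriptions over arrays that share animals, stages and labelled RNA. Among 968 other named genes, those most like the mean of COL1A1, COL1A2 and COL3A1 were SPARC (r 0.98), a matrix glycoprotein that binds collagen, and HSD17B4 (0.97), a peroxisomal enzyme of fatty acid oxidation. They were followed by C1S (0.96), a protease of the complement system, PCOLCE (0.96), which enhances the cutting of procollagen ends, LUM (0.95), a proteoglycan of collagen fibrils, and IGFBP5 (0.94), a binding protein of insulin-like growth factors. HTRA1, DECR1, FN1 and GPC3 had 0.91 to 0.94, and the median over the 968 genes was 0.15. Over the 20 crossbred arrays the likeness differed: SPARC had r 0.92, HSD17B4 0.90 and FN1 0.89, but LUM had 0.35, GPC3 -0.30 and IGFBP5 -0.53.

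Genes that work with collagen were lower at birth than at d 60 in most of their lists, where 25.6 % of all features were called lower and 22.6 % higher. Of the matrix proteins that bind collagen, 11 of 11 measured fell, with a median of -2.53, among them FN1 (fibronectin, -4.67), LUM (-3.36), DCN (decorin, a proteoglycan that binds type I fibrils, -1.97) and FBN1 (fibrillin of the microfibrils, -2.53). Of 7 measured genes of collagen synthesis and processing 4 fell: PCOLCE (-2.72), the chaperones HSP90B1 (-2.44) and HSPA5 (-1.80), and SEC31A (-1.42), a coat protein of the vesicles that leave the endoplasmic reticulum. LOX, which cross-links collagen, had 0.19 (adjusted p 0.499), P4HB, a subunit of prolyl hydroxylase, -1.0 (adjusted p 0.0767) and PLOD3, a lysyl hydroxylase, -0.40 (adjusted p 0.556). Of the 2 integrins of the receptor list, ITGA10 had -3.22 and ITGB1 -1.87, and both passed.

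Genes of collagen breakdown and its control were lower as well. Of 9 measured 7 fell, beside the 25.6 % of all features, with a median of -0.82, among them CTSB (cathepsin B, -1.50), RECK (a membrane inhibitor of matrix metalloproteinases, -0.82), and TIMP2 and TIMP1, secreted inhibitors of the same enzymes (-1.31 and -1.48). MMP14 and TIMP3 had -0.39 and -0.57 (adjusted p 0.642 and 0.428). Of 2 regulators measured, CCN2, a matricellular protein that promotes matrix production, had -1.83 and YBX1, a protein that binds DNA and RNA, had 1.17, and both passed. Only part of each list is on the array under a name of its own: 11 of 27 collagen-binding, 7 of 43 synthesis, 2 of 16 receptor, 9 of 20 breakdown and 2 of 21 regulator genes.

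Markers of several cell types moved over the same contrast, and their part in the collagen result was not tested. The counts stand beside 25.6 % of all features lower and 22.6 % higher. All 8 measured genes of muscle fibres were higher at birth than at d 60 (TNNT3, TPM2, MYL1, ACTA1, ACTN3, MYH1, MB and CKM, 1.12 to 3.63, median 2.90). Both measured fibroblast markers were lower, VIM, which encodes the filament protein vimentin, at -3.49 and S100A4 at -0.65. SPP1, the only measured gene of the cartilage and bone list, had -3.74. Of the vessel markers EGFL7 (-2.48) and MCAM (-2.30) were lower, and CNN1 (-0.57) and ACTA2 (0.25) did not pass. Of 10 adipocyte markers SCD (-1.73) and PLIN1 (-0.45) were lower and LPL (1.16) and CD36 (0.77) higher, and ADIPOQ, FABP4, LEP, FASN, LIPE and CIDEC lay between -0.24 and 0.59. Of 5 immune markers CTSS, a cathepsin also on the breakdown list, was lower (-0.70), CD74 and S100A8 higher (0.78 and 0.58), and BOLA-DRB3 and C1QA did not pass. None of 18 epidermal markers and none of 12 blood markers has a name here, so skin in the d 60 samples was not tested.

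**Figure D4:**
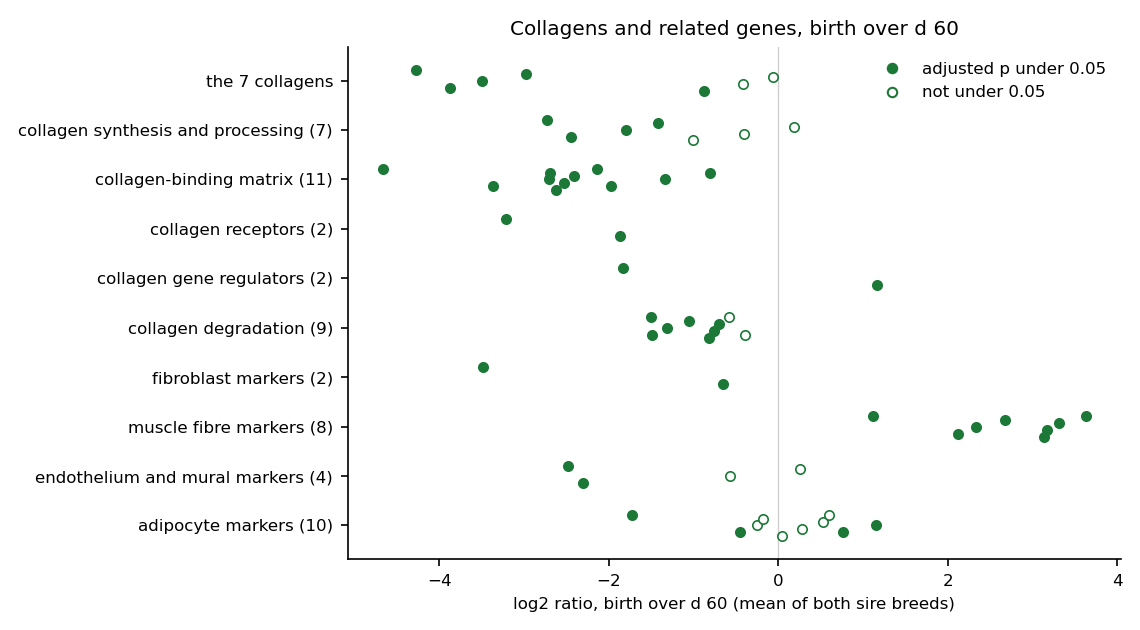
Log2 ratio of birth over d 60 (x axis, mean of both sire breeds) for the 7 collagens and for the measured genes of each list (y axis, number measured in brackets), filled where the adjusted p was under 0.05. All 11 collagen-binding matrix genes lie below 0 and all 8 muscle fibre markers above it.

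In the later crossbred animals the type I and type III chains again differed between times. Between sire breeds the type I chains differed at T2, while COL3A1 passed only at T3, in a call lost under several settings. T3 was lower than T2 by -1.08 ± 0.14 for COL1A1, -0.98 ± 0.13 for COL1A2 and -0.87 ± 0.12 for COL3A1 (2.11-fold, 1.97-fold and 1.82-fold, limma, adjusted p 2.69e-04, 4.01e-04 and 5.88e-04), where 3.98 % of 17253 features were lower. COL12A1 had -0.37 ± 0.15 (adjusted p 0.112), and COL4A1, COL5A3 and COL6A2 lay between -0.09 and 0.04. No collagen passed for T2 over T1 as the mean of both breeds, beside 6.86 % of features called in either direction. T3 over T1 was -1.14 for COL3A1, -1.12 for COL1A1 and -1.05 for COL1A2 (adjusted p 0.00551, 0.0103 and 0.0108), where 0.562 % of features were lower, and COL12A1 had -0.20 (adjusted p 0.970).

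**Figure D5:**
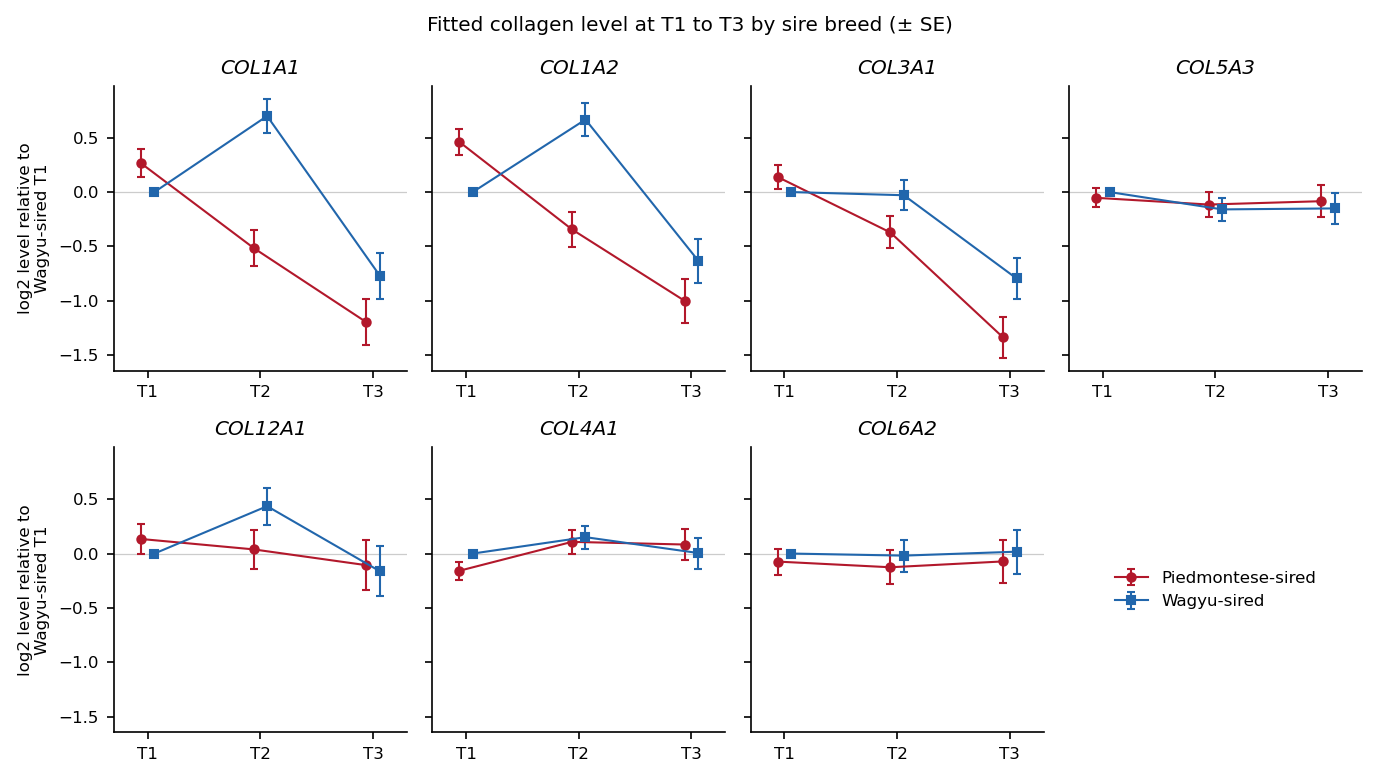
Fitted log2 level of each collagen (y axis, relative to Wagyu-sired muscle at T1) at T1, T2 and T3 (x axis) in Piedmontese-sired (red circles) and Wagyu-sired (blue squares) muscle, with bars of 1 SE. At T2 the 2 lines part for COL1A1 and COL1A2, by -1.21 and -1.01 for Piedmontese- over Wagyu-sired muscle.

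The crossbred arrays have a pattern that bears on their p-values. Of the 4 arrays that set the breeds against each other at a time, numbers 1 and 2 carry opposite dyes, as do 3 and 4. After the fit the residuals of 1 and 2 correlated at 0.54, 0.30 and 0.60 at T1, T2 and T3, those of 3 and 4 at 0.69, 0.33 and 0.55, and all other pairs at -0.85 to -0.52. Whether each pair is a dye swap of the same RNA is not in the labels used here. The tests were therefore repeated with 1 and 2, and 3 and 4, averaged, which leaves 2 values for a breed comparison at each time. T3 over T2 was lower for COL1A1, COL1A2 and COL3A1 in this fit too (adjusted p 0.00456, 0.00478 and 0.00484). T3 over T1 then passed for COL3A1 alone (adjusted p 0.0281), with 0.0544 for both COL1A1 and COL1A2. Each step of time within a breed rests on 2 arrays, and without the arrays numbered 2 the T3 over T2 ratios were -1.14, -0.90 and -0.86 for COL1A1, COL1A2 and COL3A1, with adjusted p of 0.134, 0.167 and 0.167. Without the arrays numbered 1 no collagen passed for T3 over T1 (-0.93 for COL1A1, -1.08 for COL1A2, -1.23 for COL3A1; adjusted p 0.717, 0.557 and 0.481), nor without those numbered 2 (-1.31, -1.01 and -1.04 in the same order; adjusted p 0.520, 0.686 and 0.604).

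The breeds parted at T2 for type I collagen. COL1A1 had -1.49, -1.64, -0.84 and -0.90 for Piedmontese-sired over Wagyu-sired muscle, and COL1A2 had -0.99, -1.24, -0.87 and -1.0. All 4 arrays lay below 0 for both genes, and for COL1A1 the first pair of arrays lay lower than the second. The fits were -1.21 ± 0.12 for COL1A1 (2.32-fold lower) and -1.01 ± 0.11 for COL1A2 (2.02-fold lower), with adjusted p of 1.94e-05 and 4.31e-05, or 0.00814 and 0.0116 with the pairs averaged, and 2.36 % of all features were lower. COL3A1 had -0.69, -0.60, -0.10 and 0.08, so that the pairs of arrays differed, and its fit was -0.34 ± 0.10 (adjusted p 0.0896). All 34 COL1A1 clones, all 10 COL1A2 clones and all 30 COL3A1 clones tested were below 0 at T2. They share the RNA of the same 4 arrays, so these counts are no replication and add nothing to the COL3A1 fit.

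At T1 no collagen passed, beside 0.753 % of features called in either direction. COL1A2 had 0.92, 0.76, 0.16 and 0.00 there, with the first pair of arrays above the second, and COL1A1 0.22, 0.16, 0.34 and 0.34. At T3 COL3A1 had -0.67, -0.58, -0.54 and -0.28, and its fit was -0.54 ± 0.11 (adjusted p 0.0390), where 0.232 % of features were lower. That call was lost with the pairs averaged (-0.50, adjusted p 1.00) and without the arrays numbered 1, 2, 3 or 4 (-0.61 to -0.46, adjusted p 0.0695 to 0.378). COL1A1 and COL1A2 had -0.43 ± 0.13 and -0.37 ± 0.12 at T3 (adjusted p 0.138 and 0.175).

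The step to T2 ran in opposite directions in the 2 breeds. For T2 over T1, COL1A1 had -1.14 and -0.49 in Piedmontese-sired muscle, against 0.81 and 0.66 in Wagyu-sired muscle. COL1A2 had -1.18 and -0.64 in Piedmontese-sired muscle, against 0.95 and 0.59 in Wagyu-sired muscle. T2 was in Cy3 on both Piedmontese-sired arrays and in Cy5 on both Wagyu-sired ones, so these raw values do not part breed from dye. The fit holds a dye term, which was 0.03 ± 0.06 for COL1A1 and 0.09 ± 0.06 for COL1A2. The difference of the steps, Piedmontese minus Wagyu, was -1.48 ± 0.16 for COL1A1 and -1.47 ± 0.15 for COL1A2 (limma, adjusted p 2.93e-05 and 2.60e-05, or 0.0144 and 0.0123 with the pairs averaged), where 0.91 % of all features were lower. This contrast was added after the values were seen. COL3A1 had -0.48 ± 0.14 (adjusted p 0.120) and COL12A1 -0.53 ± 0.17 (adjusted p 0.159).

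Taken within a breed, the steps are less firm. In Piedmontese-sired muscle T2 over T1 was -0.78 for COL1A1, -0.81 for COL1A2 and -0.51 for COL3A1 (adjusted p 0.0116, 0.00795 and 0.0409), and 3.43 % of all features were lower. In Wagyu-sired muscle it was 0.70 for COL1A1 and 0.67 for COL1A2 (adjusted p 0.0234 and 0.0233), and 1.97 % of all features were higher. None of these 5 passed with the pairs averaged (adjusted p 0.0506 to 0.115) or without the arrays numbered 1 or 2 (adjusted p 0.137 to 0.500). The COL3A1 call was also lost without the arrays numbered 3, with arrays scaled to the same spread, no centring, no dye intercept or capped values kept (limma, adjusted p 0.0531 to 0.189). Both calls in Wagyu-sired muscle were lost with no centring (adjusted p 0.0556 for COL1A1 and 0.0713 for COL1A2).

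At T3 the type I and type III chains were lower than at T2 in both breeds. COL1A1 had -0.60 and -0.84 in Piedmontese-sired muscle and -1.68 and -1.18 in Wagyu-sired muscle, and COL3A1 had -0.84 and -1.07 in Piedmontese-sired and -0.88 and -0.67 in Wagyu-sired muscle. The fits for COL1A1, COL1A2 and COL3A1 were -0.68, -0.66 and -0.97 in Piedmontese-sired muscle (adjusted p 0.0218, 0.0208 and 0.00529, with 1.62 % of features lower) and -1.47, -1.30 and -0.77 in Wagyu-sired muscle (adjusted p 2.14e-05, 4.25e-05 and 0.00289, with 3.64 % of features lower). In Wagyu-sired muscle COL12A1 was lower as well, at -0.22 and -1.0 on its arrays and -0.60 ± 0.17 in the fit (adjusted p 0.0335). With the pairs averaged none of the 3 passed in Piedmontese-sired muscle (adjusted p 0.0605 to 0.108), and in Wagyu-sired muscle COL12A1 was lost (adjusted p 0.0908) and the others were not. Without the arrays numbered 2 none passed in Piedmontese-sired muscle (-0.94 to -0.55), and COL3A1 (-0.78, adjusted p 0.199) and COL12A1 (-0.36, adjusted p 0.645) were lost in Wagyu-sired muscle. Without those numbered 1, COL1A1 (-0.73, adjusted p 0.147) and COL1A2 (-0.76, adjusted p 0.127) were lost in Piedmontese-sired and COL3A1 (-0.72, adjusted p 0.0738) in Wagyu-sired muscle, and without those numbered 3 or 4 COL12A1 was lost (-0.57 and -0.59, adjusted p 0.0546 and 0.0614). The fitted step of COL1A1 was smaller in Piedmontese-sired muscle, by 0.79 ± 0.16 (Piedmontese minus Wagyu, adjusted p 0.0178), where 0.73 % of features were higher, but not past the threshold with the pairs averaged (adjusted p 0.448) or without the arrays numbered 1 (0.55, adjusted p 0.623) or 2 (0.78, adjusted p 0.355). Over the whole span, T3 over T1, the breeds differed by -0.83 ± 0.17 for COL1A2, -0.69 ± 0.18 for COL1A1 and -0.68 ± 0.16 for COL3A1 (Piedmontese minus Wagyu, adjusted p 0.0936, 0.166 and 0.137), and no collagen passed, beside 0.0696 % of features lower.

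Other gene lists at T2 stood as follows for Piedmontese-sired over Wagyu-sired muscle, where 2.36 % of all features were lower. Of the 11 collagen-binding matrix genes 3 were lower, FMOD (fibromodulin, which binds fibrils, -1.13), FN1 (-0.85) and SPARC (-0.64), and the median was -0.19, beside 0.01 over all features. Of 10 adipocyte markers 4 were lower, SCD (-1.44), ADIPOQ (-1.25), FABP4 (-1.13) and PLIN1 (-0.47), and LIPE was higher (0.42). Vessel markers MCAM (-0.65) and CNN1 (-0.57) were lower, VIM had -0.28 (adjusted p 0.0802), and none of the 8 muscle fibre markers passed (0.11 to 0.55). In the difference of the steps to T2, 3 of 10 adipocyte markers were lower, SCD (-2.10), ADIPOQ (-1.25) and FABP4 (-1.13), and 1 was higher. The 10 ran from -2.10 to 0.73. In the same contrast 3 of 11 collagen-binding matrix genes were lower (all 11 from -1.21 to -0.04). Lower too were 1 of 2 fibroblast markers (-0.48, the other 0.14) and 1 of 4 vessel markers (-0.65 to 0.06). None of the 8 muscle fibre markers passed. Among all features 0.91 % were lower and 0.22 % higher in that contrast. The part of the genes of these lists in the collagen result was not tested. For T3 over T2, 3.98 % of all features were lower and 6.73 % higher. There 3 of 11 collagen-binding matrix genes were lower, FMOD (-1.06), SPARC (-1.10) and FN1 (-0.50). The median was -0.27 over the list and 0.02 over all features. Lower too were 3 of 8 muscle fibre markers (all 8 from -0.60 to -0.11), 2 of 4 vessel markers and 1 of 2 fibroblast markers (-0.50, the other 0.29). Of 10 adipocyte markers 2 were lower and 1 higher (all 10 from -1.15 to 0.81).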

How the data were processed

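The authors deposited log2 ratios of the 2 dyes, taken as likely Cy5 over Cy3 from the labels, for cDNA arrays of longissimus and fat clones, hybridised with amplified RNA and read with GenePix software; which editing steps the deposited values passed through is not given in the sources used here. A second table and 24 columns of other experiments were not used. Values at the upper limit of 16.61 were set missing, arrays were centred on their median (-0.482 to 0.465 before centring on fetal arrays, -0.316 to 0.141 on crossbred ones), and elements with 1 gene symbol were averaged per gene, with symbols updated through the gene ID. Of 21168 elements 4490 had 1 symbol, 188 several and 16490 none. Features needed values on 80 % of arrays.

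Models were fitted with limma 3.58.1 in R 4.3.3, with group terms, a dye intercept and no replicate block (17 residual degrees of freedom on fetal and 14 on crossbred arrays), and Benjamini-Hochberg adjustment over all features at a threshold of 0.05. The number of arrays limits the precision. The code was tested on simulated data. The genes named are the 7 collagens, all measured markers of other cell types, and the 10 genes most like COL1A1, COL1A2 and COL3A1. Up to 4 genes per list and direction, with the smallest p for birth over d 60, are named as well. Genes named at T2 are those of these lists that passed there and were chosen after their values were seen, as were contrasts within a breed at T1 to T3, between steps, and the averaging of array pairs. The collagens and lists were chosen with earlier results of these data known. Alternatives were centring, scaling, capped values, missing values, averaging, dye term, array weights, array number as a block and leaving out each array number.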

Additional observations from a re-analysis of the deposited data

Results flagged for a closer look

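One array stood far from the other 3 of its link. For d 195 over d 135 in Wagyu-sired muscle COL1A1 had -1.28 on the array numbered 1, beside -0.53, -0.43 and -0.43, a gap of 0.88 of the whole range, past Dixon's critical value. Of 27 groups of 4 arrays looked at, chance flags about 1 in 20. COL12A1, COL1A2, COL3A1 and COL6A2 were also lowest on that array, at -3.03, -1.35, -0.47 and -0.24, while COL4A1 and COL5A3 were not.

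Effects that differed between the sire breeds were these, each as Piedmontese minus Wagyu from limma. For T2 over T1 the difference was -1.48 for COL1A1 and -1.47 for COL1A2. For T3 over T2 it was 0.79 for COL1A1. For birth over d 60 it was -1.20 for COL3A1.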

How the results depend on the processing

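Counts are of the 7 collagens past the threshold. Apart from the averaged pairs, 216 recounts of the comparisons set by the design stayed within 1.5 times the value reported, 14 were lower and 4 higher, and for the contrasts added later 149 stayed, 15 were lower and 5 higher. With array weights 4 collagens passed for d 195 over d 135 in place of 1, and 2 for the breed difference of birth over d 60 in place of 1; with arrays scaled to the same spread 4 passed for d 195 over d 135. With no centring 0 passed for Piedmontese over Wagyu at birth in place of 1. With capped values kept, with no dye intercept, or with pairs averaged, 0 passed for Piedmontese over Wagyu at T3 in place of 1, and with pairs averaged 1 passed for T3 over T1 in place of 3. Leaving out each array number gave 0 to 0 at T3, 0 to 3 for T3 over T1, 0 to 3 for T3 over T2, 0 to 1 for Piedmontese over Wagyu at birth, 0 to 1 for the breed difference of birth over d 60 and 1 to 4 for d 195 over d 135. With capped values kept, COL6A2 for birth over d 60 was 0.62, 0.30 in Piedmontese-sired and 0.93 in Wagyu-sired muscle, none past the threshold, since 1 reading at the limit then enters. The causes of the other changes were not tested.

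Array numbers are shared between links but not tied to animals: residuals of same-numbered fetal arrays correlated at a median of -0.01 (84 pairs), and of crossbred arrays at 0.11 (48 pairs). With the array number as a replicate block the consensus correlation was -0.03 on fetal and 0.03 on crossbred arrays, 5 collagens passed for birth over d 60, 1 for d 195 over d 135 and 3 for T3 over T2, and the other counts moved by less than 1.5 times, except that 2 collagens in place of 1 passed for the breed difference of T3 over T2. Calls over all features were less steady: Piedmontese over Wagyu at birth gave 46, and 0 to 1372 under alternatives, at d 60 8 and 0 to 1833, at T2 566 and 101 to 1000, T3 over T2 1847 and 0 to 2746, and the breed difference of birth over d 60 2198 and 0 to 4847.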
